A study of Homo sapiens with 44 samples.

Results

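The comparison set the response of Kelly cells to STM2457 at 6 days against that of NGP cells, as (STM2457 minus DMSO in Kelly) minus (STM2457 minus DMSO in NGP) on the log2 scale. It used 12 of the 44 libraries of the series, chosen by their labels: the input libraries of both lines at 6 days, 3 per group. Kelly and NGP are established human neuroblastoma lines, both labelled MYCN-amplified with wild-type genotype. In each line, 1 group received DMSO and the other 8 µM STM2457, so the 4 groups differed only in line and treatment as far as the labels go. The inputs are RNA-seq of fragmented poly(A) RNA, taken before the antibody step of the m6A pulldown that the series is built on. Each line is a single cell population, and nothing in the labels says whether the 3 libraries of a group came from separate cultures, so p-values measure the spread between these libraries, which may be technical.

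STM2457 blocks the catalytic site of METTL3, the methyltransferase that, bound to METTL14, writes N6-methyladenosine (m6A) onto mRNA. Methylated transcripts are bound by YTH-domain readers, several of which shorten the life of the mRNA. Neuroblastoma cells resemble precursors of sympathetic neurons, and their adrenergic identity is kept by a circuit of transcription factors such as HAND2 and GATA3. A further pathway met below is the amino acid response, in which the transcription factor ATF4, made when amino acids run short or the endoplasmic reticulum is stressed, switches on amino acid synthesis, transport and tRNA charging.

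Library totals ran from 5765458 to 31487824 assigned fragments in Kelly and from 5488974 to 11604403 in NGP. The common biological coefficient of variation, a measure of the spread between replicates, was 0.0913 in Kelly and 0.24 in NGP. For genes of at least 10 CPM (the count scaled to the library total) in both lines the median standard error of a log2 change was 0.094 in Kelly and 0.20 in NGP, so a change of a given size was measured less precisely in NGP. Treated replicate 3 of Kelly was the shallowest library of its line and had 1.79% of its counts on mitochondrial genes, against 4.06 to 5.09% in the other Kelly libraries. All 12 sympathetic neuroblast markers stood at 10 CPM or more in every Kelly library and 11 of 12 in every NGP library. The exception in NGP was TH, tyrosine hydroxylase. Leukocyte markers summed to at most 1.26 CPM in any library. The file headers place Kelly and NGP in different folders, so line and any batch cannot be told apart. CPM values below are scaled by TMM factors over the 12 libraries, and as in any bulk sample fewer cells with a transcript and less of it per cell cannot be told apart.

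Genes called in both lines moved the same way with few exceptions. For a difference in size, 10 of 161 shared rises and 4 of 138 shared falls were called, against 1.36% of all genes. For the others a difference was not shown, which is not the same as equal size. A gene was called at a Benjamini-Hochberg adjusted p under 0.05 in edgeR's quasi-likelihood test. Kelly gave 3396 calls among 12773 genes (26.6%) and NGP 520 among 12289 (4.23%). By direction, 11.9% of genes rose and 14.7% fell in Kelly, and 2.07% rose and 2.16% fell in NGP. These shares are the background for the list counts below. Of 11682 genes tested in both lines, 161 rose in both (1.38%) and 138 fell in both (1.18%), while 18 were called in opposite directions. Among these genes tested in both lines, 64.0% of the NGP calls were called in Kelly too, and 10.0% of the Kelly calls were called in NGP. A call in Kelly without one in NGP was rarely a shown difference: of 2839 such genes, 88 were called for the difference itself, and 77.3% had the same sign in NGP. Of 178 genes called in NGP alone, 45 were called for the difference and 78.7% had the same sign in Kelly. Among genes called in neither line 57.5% had the same sign. As a background for the statements on overlap below, all treated libraries lay above all controls for 21.1% of genes in Kelly and 11.6% in NGP, and below them for 20.2% and 11.7%. Leaving out 1 NGP library moved the shared count of 299 most: dropping DMSO replicate 1 gave 191, dropping DMSO replicate 3 gave 125, and dropping treated replicate 1 gave 74. The NGP count then was 339, 229 and 128.

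The difference of responses was called for 183 of 13448 genes (1.36%), 76 with a higher log2 change in Kelly (0.565%) and 107 with a lower one (0.796%). Of these, 48 and 77 differed by at least 2-fold. They fell into 8 kinds. In 35 genes the rise was called in Kelly and not in NGP, and in 56 the fall was called in Kelly and not in NGP. In 20 genes the rise was called in NGP alone and in 26 the fall was called in NGP alone. The 18 genes called in opposite directions all passed the test of the difference. A further 10 rose and 4 fell in both lines by unequal amounts, and 14 were called for the difference only. With any 1 of the 6 Kelly libraries left out the count was lower, at 101, 106 and 95 without DMSO replicates 1, 2 and 3 and at 110, 94 and 111 without treated replicates 1, 2 and 3. It was 276 without treated replicate 2 of NGP. DESeq2 called 430. One fit of all 22 inputs, with 1 spread for both lines, called 791 genes in Kelly and 1266 in NGP.

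**Figure D1:**
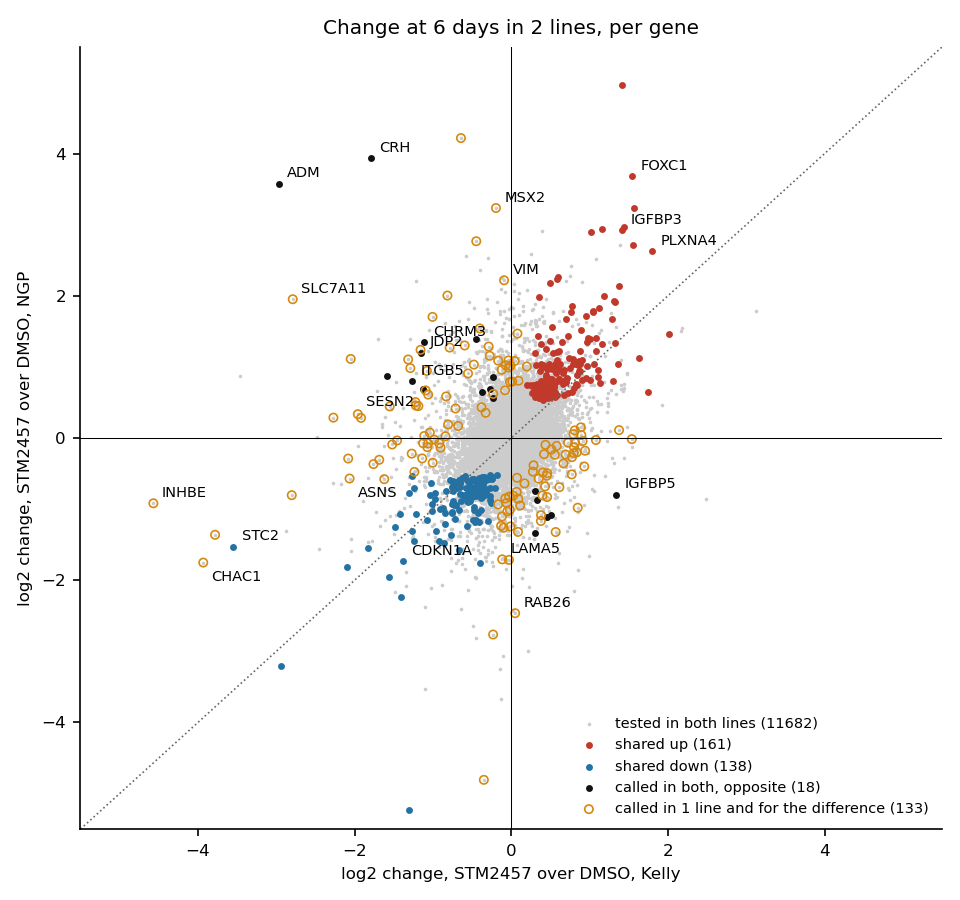
Log2 change with STM2457 at 6 days in Kelly (horizontal) and NGP (vertical) for 11682 genes tested in both lines, each point a gene; 2 genes lie outside the axes. Red points are the 161 genes called up in both lines, blue the 138 called down in both, black the 18 called in opposite directions, and orange rings the 133 called in 1 line and for the difference; the dotted line marks equal change.

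Of the 161 genes that rose in both lines, 10 were called for the difference, against 1.36% of all genes. The 161 genes had a median log2 change of 0.59 in Kelly and 0.92 in NGP. But the call itself needs a larger change in NGP, where the median SE over genes of at least 10 CPM was 0.20 against 0.094 in Kelly. The medians are therefore a description of the selected genes and no comparison of the lines. For IGFBP3 (GRCh38 chr7:45912245-45921874), which binds insulin-like growth factors in the extracellular space, the Kelly libraries stood at 2.72, 3.58 and 3.56 CPM with DMSO and 8.46, 8.76 and 9.85 with STM2457. Its NGP libraries stood at 16.5, 22.7 and 22.7 with DMSO and 173, 146 and 146 CPM with STM2457. Treated and control libraries did not overlap in either line, and the rise was 1.41 (SE 0.21) in Kelly against 2.92 (SE 0.18) in NGP on the log2 scale. The difference of -1.49 (SE 0.24) had an edgeR Benjamini-Hochberg adjusted p of 0.00317, and was not called when all 22 inputs of the series shared 1 fit (-1.48).

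FOXC1, a forkhead transcription factor counted among mesenchymal genes of neuroblastoma, also rose in both lines and by more in NGP. It stood at 10.9, 12.2 and 11.04 CPM in Kelly with DMSO and 31.00, 31.6 and 40.4 with STM2457, and at 2.54, 2.498 and 3.88 with DMSO and 35.1, 55.7 and 25.7 with STM2457 in NGP. The NGP libraries began lower and ended within the range of the treated Kelly libraries or above it, apart from the third at 25.7. The log2 difference was -2.09 (SE 0.37, edgeR Benjamini-Hochberg adjusted p 0.00556), and limma voom with weights per line did not call it (-2.02). PLXNA4, a receptor for class 3 and 6 semaphorins, rose by 1.80 in Kelly and 2.63 in NGP, where its call was lost without DMSO replicate 1 (2.49) and without treated replicates 1 (2.62) and 2 (2.46). CHRM1, a muscarinic acetylcholine receptor, rose by 1.57 (SE 0.19) and 3.24 (SE 0.56). TRIL, an accessory protein of Toll-like receptors, rose by 1.56 and 2.72, and the scaffold protein AHNAK by 1.38 and 2.14. The differences for CHRM1, TRIL and AHNAK were -1.57, -1.13 and -0.75 and were not called. TRIL was called by DESeq2 (-1.15) and without DMSO replicate 3 of NGP (-1.48), and AHNAK without DMSO replicate 2 of NGP (-0.92).

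In other shared rises the size was close in the 2 lines. SMAD6 (GRCh38 chr15:66702236-66782849), an inhibitor of BMP signalling that BMP itself induces, stood at 17.8, 16.4 and 15.1 CPM in Kelly with DMSO and 32.3, 35.1 and 47.5 with STM2457. In NGP it stood at 44.5, 51.02 and 43.4 with DMSO and 124, 114 and 108 CPM with STM2457. No treated library overlapped a control, the log2 changes were 1.16 (SE 0.14) and 1.32 (SE 0.17), and the 95% interval of their difference ran from -0.56 to 0.31. Of the 19 genes of the BMP, SMAD and ID list, 5 rose and 1 fell in Kelly and 5 rose in NGP, with list medians of 0.11 and 0.22 against all-gene medians of -0.0045 and 0.010, and 0 of 19 were called for the difference by edgeR (1 at an unadjusted p under 0.05, 1 called by DESeq2). ID3, which was singled out after its values were seen as the list member called in NGP and close to 0 in Kelly, stood at 0.011 in Kelly and 0.89 in NGP. ID2, which blocks basic helix-loop-helix factors, rose by 0.56 and 0.64, and its NGP call was lost without DMSO replicate 1 (0.59), DMSO replicate 3 (0.65) or treated replicate 1 (0.57). Across the 299 shared genes, the 95% interval of the difference lay within 2-fold for 222, made up of 112 that rose and 110 that fell.

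The 138 genes that fell in both lines had median log2 changes of -0.53 in Kelly and -0.77 in NGP, under the same selection by call. For the difference 4 of them were called, against 1.36% of all genes. CDKN1A (GRCh38 chr6:36676460-36687339), which encodes the cyclin-dependent kinase inhibitor p21, stood at 171, 146 and 162 CPM in Kelly with DMSO and 52.96, 63.5 and 73.3 with STM2457. In NGP it went from 61.2, 65.8 and 73.4 to 27.3, 13.4 and 18.5 CPM. All treated libraries lay below all controls of their line, with log2 changes of -1.38 (SE 0.095) and -1.73 (SE 0.23) and a difference of 0.38 (95% interval -0.15 to 0.91). SHOX2, a homeobox transcription factor, fell by nearly the same amount, -1.27 and -1.31. CABP7, a calcium-binding protein, changed by -2.09 and -1.81, and EGFLAM, an extracellular matrix protein, by -1.83 and -1.54. CARD10, a scaffold of NF-κB signalling, changed by -1.40 and -2.24. Its NGP call was lost without DMSO replicate 2 (-1.54) or treated replicate 3 (-2.003). CABP7 shares exon sequence with ZMAT5 and SHOX2 with RSRC1, so their counts are uncertain.

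Mitosis genes had medians below 0 in both lines, with more calls in Kelly. Of 29 tested, 15 fell and 1 rose in Kelly, with a median of -0.25, and 2 fell in NGP, with a median of -0.34 and 27 of 29 values below 0. For the difference 0 of 30 were called by edgeR and 0 by DESeq2, and 2 had an unadjusted p under 0.05 in edgeR. PTTG1, securin, changed by -0.70 (SE 0.076) in Kelly and -0.70 (SE 0.15) in NGP, and the 95% interval of the difference ran from -0.33 to 0.36. Its NGP call was lost without DMSO replicate 3 (-0.69) or treated replicate 1 (-0.63). AURKB, a mitotic kinase, changed by -0.48 in Kelly and, without a call, by -0.34 in NGP. In the fits that share 1 spread over both lines, 3 or 4 mitosis genes fell in Kelly and up to 11 in NGP. Of 31 DNA replication genes 3 rose and 3 fell in Kelly, where 11.9% of all genes rose and 14.7% fell. In NGP 2 of the 31 rose, where 2.07% of all genes rose. FEN1, the flap endonuclease of Okazaki fragment processing, rose by 0.59 and 0.61, and its NGP call was lost without DMSO replicate 1 (0.61), DMSO replicate 3 (0.55) or treated replicate 1 (0.59). FEN1 shares 49 exon bases with FADS2. CDC45, a subunit of the replicative helicase, changed by -0.33 in Kelly and, without a call, by 0.035 in NGP, and with 1 spread for both lines the Kelly fall was not called (-0.31).

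The list with the most called differences was the amino acid response, whose genes fell in Kelly and with few calls in NGP. All 20 tested genes of the amino acid response list fell in Kelly, with a median log2 change of -1.57. In NGP, STC2 fell and JDP2 rose out of 19 tested, with a median of -0.19. There DESeq2 called 3 and 12 had an unadjusted p under 0.05 in edgeR. With 1 spread for both lines more NGP genes were called, 5 down and 2 up in the fit of 22 inputs and 7 down and 2 up in that of 12 libraries. Fewer were called in Kelly in these fits, 15 of 21 and 16 of 20, all down. The difference was called for 10 of 20, all lower in Kelly, against 0.796% of all genes: DDIT4, CHAC1, INHBE, ASNS, SESN2, VLDLR, STC2, ADM2, SLC7A11 and JDP2. Leaving out any 1 of the 12 libraries left between 8 and 11 called. Among genes of at least 10 CPM in both lines 4 of 12 were called.

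The motif TGATGNAA, the core of the composite element bound by ATF4 with C/EBP proteins, was searched on both strands of the promoters of these genes. RefSeq promoters (GRCh38.p14, 250 bases before to 50 after the gene start) were matched for 55 of the 67 tested genes of the 4 amino acid lists, and 14 of the 55 (25.45%) held it. Among all 10709 tested genes with a matched promoter the share was 1.66%. The lists were drawn up around the ATF4 pathway with earlier results known. A higher share of its motif therefore describes the genes chosen and is no result of the treatment. It was 3 of 18 in the amino acid response list and 6 of 16 among the tRNA synthetases. Of the 14, 6 that fell in Kelly are shown as examples, since the motif is the sequence that they have in common. Their sites are written 5′ to 3′ on the strand that carries the motif, with the motif in capitals.
CHAC1, chr15:40953251-40953280: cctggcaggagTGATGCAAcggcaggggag
ASNS, chr7:97872458-97872487: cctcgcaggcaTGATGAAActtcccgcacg
ATF3, chr1:212565205-212565234: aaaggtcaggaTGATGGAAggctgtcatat
CARS1, chr11:3057407-3057436: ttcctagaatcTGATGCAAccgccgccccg
MARS1, chr12:57488053-57488082: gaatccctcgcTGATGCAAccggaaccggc
AARS1, chr16:70289675-70289704: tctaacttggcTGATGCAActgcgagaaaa
CHAC1, ASNS, CARS1 and MARS1 were called for the difference, ATF3 and AARS1 were not. Of the motif genes not shown, SLC3A2 was called for the difference. MTHFD1L, GOT1, SLC7A1, IARS1, NARS1 and TARS1 fell in Kelly without a called difference, and SLC38A1 was called in neither test. A match describes letters in this window and nothing about binding in these cells.

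ASNS (GRCh38 chr7:97851677-97872542), asparagine synthetase, stood at 131, 130.4 and 126 CPM in Kelly with DMSO and 32.01, 32.4 and 27.8 with STM2457. In NGP it stood at 62.5, 57.8 and 69.7 with DMSO and 39.2, 41.5 and 47.1 CPM with STM2457. Treated libraries lay below controls in both lines, and the log2 change was -2.06 (SE 0.075) in Kelly and -0.57 (SE 0.18, edgeR Benjamini-Hochberg adjusted p 0.0745) in NGP. The difference was -1.48 (SE 0.17, edgeR Benjamini-Hochberg adjusted p 0.000124). SESN2, a leucine sensor that restrains mTORC1, went from 90.1, 85.7 and 94.5 to 20.5, 27.4 and 21.8 CPM in Kelly and from 4.92, 6.78 and 4.17 to 8.298, 6.602 and 4.89 in NGP, where the groups overlapped. Its difference was -2.31 (SE 0.30, edgeR Benjamini-Hochberg adjusted p 0.000307).

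STC2 (GRCh38 chr5:173314713-173329503), a secreted glycoprotein, is the amino acid response gene called down in both lines. It began at like levels, 80.5, 78.4 and 82.9 CPM in Kelly and 72.5, 97.9 and 82.5 in NGP, and ended at 6.55, 7.08 and 7.91 and 23.6, 37.9 and 26.5 CPM. The log2 changes of -3.55 and -1.53 differed by -1.98 (SE 0.24, edgeR Benjamini-Hochberg adjusted p 0.000209). DDIT4, another brake on mTORC1, changed by -1.62 in Kelly and -0.58 in NGP, with a difference of -0.997 (SE 0.19). CHAC1, a glutathione-degrading enzyme, changed by -3.93 and -1.75. The difference of -2.12 was not called by limma voom with weights per line (-2.07) or without treated replicate 3 of NGP (-1.48). INHBE, an inhibin subunit, changed by -4.57 and -0.92, a difference of -3.59 (SE 0.58).

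SLC7A11, the cystine importer, went from 12.8, 10.5 and 8.902 CPM to 1.62, 1.15 and 2.64 in Kelly, while in NGP it went from 1.02, 0.357 and 0.485 to 2.61, 2.71 and 2.27 CPM without passing the test (edgeR Benjamini-Hochberg adjusted p 0.253). The NGP libraries were all below 3 CPM, so the log2 difference of -4.58 (SE 0.64) rests on few counts in that line. JDP2 (GRCh38 chr14:75427716-75474111), a repressor of AP-1, moved in opposite directions. It stood at 20.8, 22.2 and 24.04 CPM in Kelly with DMSO and 10.2, 10.2 and 10.4 with STM2457, and at 10.9, 9.81 and 14.8 with DMSO and 27.9, 27.3 and 26.9 with STM2457 in NGP. Neither line's groups overlapped, and the difference was -2.32 (SE 0.26, edgeR Benjamini-Hochberg adjusted p 0.000117). The NGP rise of 1.20 was no longer called without treated replicate 1 (1.18). ADM2 differed by -1.96 and VLDLR by -1.41. The ADM2 call was lost without Kelly DMSO replicate 1 (-1.93) or 3 (-1.88) or treated replicate 2 (-1.80). The VLDLR call was lost with any 1 Kelly library left out (-1.34 to -1.51) and without DMSO replicate 1 (-1.44), DMSO replicate 3 (-1.18) or treated replicate 3 (-1.26) of NGP.

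The neighbouring lists held biosynthetic enzymes, amino acid transporters and aminoacyl-tRNA synthetases. Of 15 genes of serine, one-carbon and proline synthesis, 12 fell in Kelly and 0 in NGP (medians -0.74 and -0.21), and 4 were called for the difference, or 2 to 4 with 1 library left out. In NGP, DESeq2 also called 0, 1 had an unadjusted p under 0.05 in edgeR, and 1 or 2 were called in fits that share 1 spread with Kelly. PHGDH, the first enzyme of serine synthesis, stood at 636, 595 and 664 CPM in Kelly with DMSO and 285, 298 and 290.3 with STM2457. In NGP it stood at 375, 348 and 399.6 with DMSO and 302, 278 and 338 CPM with STM2457, also without overlap, and the difference was -0.83 (SE 0.14, edgeR Benjamini-Hochberg adjusted p 0.00428). GPT2, mitochondrial alanine transaminase, changed by -1.52 in Kelly and -0.091 in NGP, a difference of -1.41 (SE 0.18). PSPH and ALDH1L2 differed by -0.92 and -1.82, both with calls that depended on single libraries: PSPH was not called with any 1 Kelly library left out (-0.99 to -0.86) or any NGP library but DMSO replicate 3 and treated replicate 1. ALDH1L2 was not called without Kelly DMSO replicate 1 (-1.90), 2 (-1.81) or 3 (-1.75), Kelly treated replicate 2 (-1.82) or 3 (-1.65), or NGP DMSO replicate 3 (-1.75), treated replicate 1 (-1.84) or 3 (-1.49).

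Of 13 amino acid transporter genes 8 fell in Kelly and 0 of 12 in NGP by edgeR or DESeq2 (medians -0.57 and -0.033; 1 with an unadjusted p under 0.05 in NGP by edgeR). SLC3A2 and SLC7A5 encode the heavy and light chains of the leucine transporter LAT1. SLC3A2 (GRCh38 chr11:62856102-62888875) stood at 259.6, 256 and 267 CPM in Kelly with DMSO and 112, 123 and 135 with STM2457, against 92.9, 74.2 and 102 with DMSO and 99.9, 75.2 and 98.7 with STM2457 in NGP, where the groups overlapped. The difference was -1.11 (SE 0.18) for SLC3A2 and -1.03 (SE 0.20) for SLC7A5, with edgeR Benjamini-Hochberg adjusted p values of 0.00317 and 0.00948. Of 20 cytosolic aminoacyl-tRNA synthetases 12 fell in Kelly and 0 in NGP by edgeR or DESeq2 (medians -0.47 and -0.23), although 9 had an unadjusted p under 0.05 in NGP by edgeR. In NGP 6 or 7 fell in the edgeR fits with 1 spread for both lines, and 2 with the replicate number as a block. In the fits with 1 spread 1 amino acid transporter rose in NGP. GARS1, glycyl-tRNA synthetase, differed by -0.96 (SE 0.15) with a level of 537, 519.9 and 516 CPM in Kelly controls and 262, 248 and 253 in treated cells. CARS1, MARS1 and WARS1 differed by -1.02, -0.82 and -0.84. The number of synthetases called for the difference, 4, ran from 1 to 6 when a library was left out. CARS1 was not called without Kelly DMSO replicate 1 (-0.98) or treated replicate 1 (-0.95), WARS1 without Kelly DMSO replicates 2 (-0.83) and 3 (-0.78) or treated replicates 1 (-0.83) and 2 (-0.81), and MARS1 with any 1 Kelly library left out (-0.84 to -0.79), NGP DMSO replicate 3 (-0.83) or NGP treated replicate 1 (-0.77). MARS1 shares exon bases with DDIT3 and ARHGAP9, and WARS1 with WDR25.

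The 2 lines already differed in these genes without inhibitor. In 14 of the 20 amino acid response genes all Kelly DMSO libraries lay above all NGP DMSO libraries, and in 0 below, while 34.7% of all genes tested lay above and 31.9% below. With STM2457, 8 of the 20 were higher in Kelly and 8 lower (32.2% and 29.6% of all genes). The median log2 ratio of Kelly over NGP, with 1 CPM added, was 0.83 with DMSO and -0.26 with STM2457 for these genes. In the serine list 7 of 15 were higher and 4 lower in Kelly with DMSO, and 1 was higher and 6 lower with STM2457. These are the same libraries as in the test of the difference, so the shift is a description of it.

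**Figure D2:**
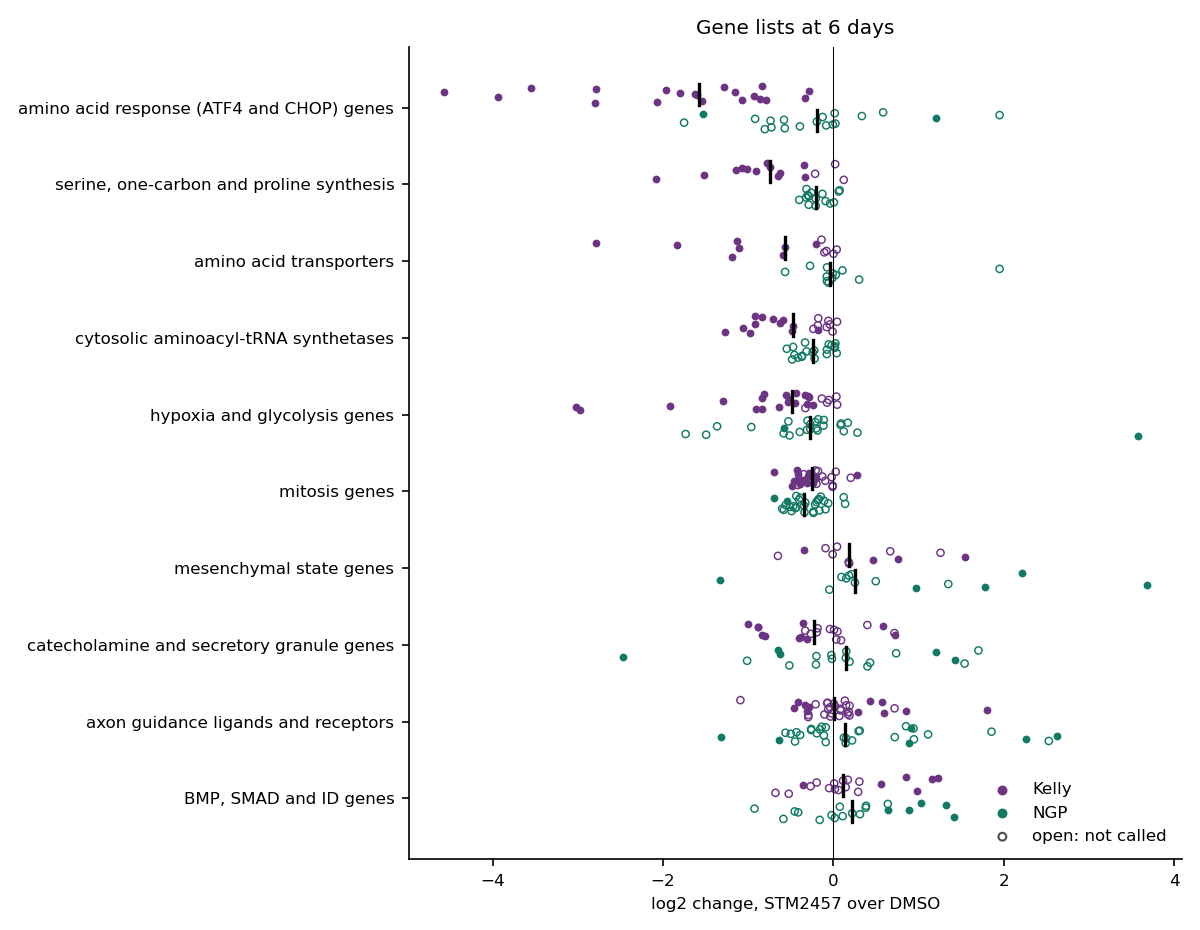
Log2 change with STM2457 at 6 days per gene in 10 gene lists, purple for Kelly and green for NGP. Filled points passed the edgeR test in that line, open points did not, and the black bar is the list's median, which for the amino acid response is -1.57 in Kelly and -0.19 in NGP.

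Hypoxia and glycolysis genes fell in Kelly, 20 of 26, with a median of -0.48, and in NGP LDHA fell and ADM rose out of 25, with a median of -0.27 and 19 values below 0. Only ADM and EGLN3 were called for the difference, so for most of the list a difference between the lines was not shown. ADM, the vasodilator peptide adrenomedullin, stood at 4.17, 1.79 and 1.51 CPM in Kelly with DMSO and 0.504, 0.0329 and 0.703 with STM2457, and at 0.509, 1.61 and 1.07 with DMSO and 12.2, 11.7 and 12.2 with STM2457 in NGP. It was a rare transcript in both controls, and the log2 difference was -6.48 (SE 0.92, edgeR Benjamini-Hochberg adjusted p 0.000849). EGLN3, a prolyl hydroxylase that marks HIF for degradation, went from 12.3, 15.2 and 13.98 to 3.67, 2.96 and 5.63 CPM in Kelly and from 18.3, 14.3 and 15.8 to 20.9, 25.1 and 13.3 in NGP, a difference of -2.13 (SE 0.37). Its NGP libraries overlapped. In the fits with 1 spread for both lines 10 or 11 of the list fell in Kelly.

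Among genes of cell identity a minority was called for the difference, against 0.565% of all genes called higher in Kelly and 0.796% lower. Adrenergic core transcription factors had 1 of 18 called higher and 1 lower, and mesenchymal genes 3 of 14 lower. In the catecholamine and granule list 1 of 23 was called higher and 4 lower. Of 18 adrenergic core transcription factors 7 rose and 3 fell in Kelly, and 2 rose and 2 fell in NGP, with medians of 0.14 and 0.13. TFAP2B, a sympathetic lineage factor, stood at 501, 485 and 495 CPM with DMSO and 401, 445 and 438 with STM2457 in Kelly and at 73.2, 66.2 and 66.3 with DMSO and 119, 143 and 111 with STM2457 in NGP. Neither line's groups overlapped. The difference was -1.06 (SE 0.15, edgeR Benjamini-Hochberg adjusted p 0.000775), and the small Kelly fall of -0.23 was not called without DMSO replicate 1 or 3 (-0.22 each).

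Enzymes of catecholamine synthesis fell in Kelly: TH, DDC and DBH were called there, and all were called for the difference. Of 22 genes of the catecholamine and granule list 9 fell and 2 rose there, and 3 fell and 2 rose of 19 in NGP. DDC (GRCh38 chr7:50458436-50565405), which makes dopamine, stood at 538, 492 and 513 CPM in Kelly with DMSO and 282, 308 and 305 with STM2457, and at 83.4, 78.3 and 69.2 with DMSO and 82.7, 72.3 and 107 with STM2457 in NGP, where the groups overlapped. The difference was -0.98 (SE 0.18, edgeR Benjamini-Hochberg adjusted p 0.00607). TH, the first enzyme of the pathway, stood at 1083, 1041 and 1026 CPM in Kelly controls and 485, 548 and 558 in treated cells, while no NGP library exceeded 3.66 CPM. Its difference of -2.77 therefore rests on a line that barely expressed it, and limma voom with weights per line did not call it (-2.76). DBH, which turns dopamine into noradrenaline, changed by -0.38 in Kelly and 0.43 in NGP without a call there. Its difference of -0.79 was not called with any 1 Kelly library left out (-0.81 to -0.75), NGP DMSO replicate 2 (-0.61) or 3 (-0.83), or NGP treated replicate 1 (-0.67). CYB561, the cytochrome that supplies electrons in granules, differed by -1.90 (SE 0.34), and limma voom with weights per line did not call it (-1.96). No NGP library exceeded 4.28 CPM, so this difference too rests on a line that barely expressed the gene. The Kelly change of CYB561 was -0.40, and with 1 spread for both lines it was not called (-0.38). RAB26, a small GTPase of secretory granules, went the other way. It stood at 29.2, 38.00 and 29.5 CPM in NGP with DMSO and 8.14, 4.74 and 4.28 with STM2457, and at 6.89, 7.66 and 7.66 with DMSO and 5.87, 8.497 and 9.85 with STM2457 in Kelly, where the groups overlapped. The difference was 2.55 (SE 0.37, edgeR Benjamini-Hochberg adjusted p 0.00111).

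VIM (GRCh38 chr10:17228241-17237593), the intermediate filament vimentin, stood at 37.4, 24.8 and 41.1 CPM in NGP with DMSO and 159, 163 and 162 with STM2457. In Kelly it stood at 61.4, 59.9 and 69.2 with DMSO and 57.3, 59.8 and 65.4 CPM with STM2457, with overlapping groups. The log2 change was 2.22 (SE 0.18) in NGP and -0.092 (SE 0.083) in Kelly, and the difference of -2.28 (SE 0.20) had an edgeR Benjamini-Hochberg adjusted p of 4.83e-06. FOSL2, an AP-1 subunit, rose in both lines and more in NGP (0.76 and 1.78, difference -0.98, SE 0.18). Of the mesenchymal list 3 rose and 1 fell of 12 in Kelly and 4 rose and 1 fell of 13 in NGP, with medians of 0.18 and 0.25, and 3 of 14 were called for the difference. The 7 fibroblast markers summed to 67.6 to 95.1 CPM in NGP with DMSO and 88.5 to 128.7 with STM2457, and to 35.6 to 41.4 and 19.5 to 22.8 in Kelly. In NGP 1 of the 7 was at 0 in all control libraries. Their part in the rise of VIM was not tested.

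MSX2, a homeobox factor, stood at 1.36, 1.07 and 0.872 CPM in NGP with DMSO and 11.2, 11.5 and 8.81 with STM2457, and between 2.63 and 6.51 in all Kelly libraries. KRT17, a keratin, stood at 1.44, 0.357 and 2.52 with DMSO and 13.2, 7.96 and 9.86 CPM with STM2457 in NGP and between 2.74 and 5.62 in Kelly. Their differences were -3.32 (SE 0.55) and -3.17 (SE 0.60), and both rested on controls of a few CPM. Without treated replicate 1 the NGP rise of KRT17 was not called (2.56). PPP1R16B, a regulatory subunit of protein phosphatase 1, rose from 39.3, 29.97 and 37.9 to 96.2, 83.8 and 81.9 CPM in NGP and differed by -1.54 (SE 0.20). Among NGP falls, LAMA5 (GRCh38 chr20:62307955-62367312), the laminin alpha 5 chain, went from 42.3, 27.7 and 38.8 to 9.88, 11.7 and 11.9 CPM while the Kelly libraries ran from 186 to 244 with overlap. Its difference was 1.64 (SE 0.21, edgeR Benjamini-Hochberg adjusted p 0.000288). LAMA5 shares 244 exon bases with ADRM1.

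ASIC4, TMEM130, ABAT, ZNF469 and GFRA1 rose in Kelly with no call in NGP, and each was called for the difference. ASIC4, an acid-sensing ion channel, stood at 9.15, 8.09 and 4.81 CPM in Kelly with DMSO and 12.9, 14.95 and 15.1 with STM2457, and at 66.5, 93.7 and 72.99 with DMSO and 57.1, 59.8 and 58.98 with STM2457 in NGP. Its difference of 1.36 (SE 0.27) was not called without Kelly treated replicate 2 (1.32). TMEM130 differed by 1.99, and lost its call without Kelly DMSO replicate 1 (1.98) or 3 (1.96), Kelly treated replicate 2 (1.96) or NGP treated replicate 1 (1.68). ABAT, which breaks down GABA, differed by 1.58, and lost its call with any 1 Kelly library left out (1.53 to 1.601), NGP DMSO replicate 1 (1.44) or NGP treated replicate 1 (1.33). ZNF469 differed by 1.32, and lost its call without Kelly DMSO replicate 3 (1.20) or treated replicate 2 (1.25). GFRA1, the co-receptor that binds GDNF and presents it to RET, differed by 1.05 and was not called with any 1 Kelly library left out (1.02 to 1.10), nor without NGP DMSO replicate 1 (1.03) or 3 (1.02) or treated replicate 1 (1.00) or 3 (0.91).

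Among Kelly falls outside amino acid metabolism, COL11A1, a fibrillar collagen chain, stood at 4.17, 4.598 and 3.29 CPM in Kelly with DMSO and 1.04, 1.71 and 1.41 with STM2457. In NGP it stood at 25.7, 28.01 and 34.9 with DMSO and 41.3, 35.4 and 43.4 CPM with STM2457, and the difference was -1.97 (SE 0.32, edgeR Benjamini-Hochberg adjusted p 0.00317). That difference was not called in the fit of all 22 inputs (-1.97). SPRY4, a feedback inhibitor of receptor tyrosine kinase signalling, differed by -2.02, and was not called with any 1 Kelly library left out (-2.17 to -1.74) or any NGP library but DMSO replicate 2 and treated replicate 2 (-2.06 to -1.74). SEMA5B, a semaphorin, differed by -3.22, and was not called with any 1 Kelly library other than treated replicate 2 left out (-3.24 to -3.01) or without NGP treated replicate 1 (-3.23). ANXA4, an annexin, had 1, 0 and 0 counts in the NGP controls and 6, 4 and 6 in the treated libraries, so its fitted difference is not read here. UNC93B1, a chaperone of Toll-like receptors, had 24, 3 and 11 counts in the NGP controls and 0 in each treated NGP library. Its fitted difference depends on the prior count and is no bound.

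The p53 targets, 3 of 26 called for the difference, went both ways. PLK2, a Polo-like kinase, rose in both lines, by 0.58 in Kelly and 2.24 in NGP, while CDKN1A, the best known target, fell in both. The PLK2 difference of -1.62 was not called with any 1 Kelly library other than DMSO replicate 2 left out (-1.65 to -1.56), nor without NGP DMSO replicate 1 (-1.42) or treated replicate 1 (-1.34). BBC3, the pro-apoptotic protein PUMA, differed by 2.33 with no call in either line, and TP53I3 by -0.79. Both lost the call with any 1 Kelly library left out (2.20 to 2.40 and -0.82 to -0.74). BBC3 also lost it without NGP DMSO replicate 3 (2.07) or treated replicate 1 (1.84) or 3 (2.00), and TP53I3 without NGP DMSO replicate 1 (-0.68) or 3 (-0.76) or treated replicate 1 (-0.70). DESeq2 and limma voom did not call BBC3 (2.16 and 2.47). In NGP, BBC3 stood at 2.54, 5.89 and 5.91 CPM with DMSO and 0.395, 2.71 and 0.523 with STM2457. Its Kelly libraries ran from 61.5 to 80.9 CPM, so the difference rests on few counts in NGP.

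Of 16 Notch receptors, ligands and targets 4 rose and 2 fell in Kelly, where 11.9% of all genes rose and 14.7% fell. Of 18 in NGP 5 fell and 0 rose, where 2.16% of all genes fell. The medians were 0.12 in Kelly and -0.29 in NGP. Under the other settings up to 4 rose in NGP. DLL3 was the 1 of 19 called for the difference by edgeR (1.06), against 1.36% of all genes, and 3 were called by DESeq2. An unadjusted p under 0.05 in edgeR was found for 10 of the 19, against 1747 of all 13448 genes. Neuronal cytoskeleton and synapse genes rose in Kelly in 12 of 27 and fell in 3, and in NGP 1 of 28 rose and 1 fell. The Kelly rises numbered from 4 to 12 under the other settings. CNTN1, an axonal adhesion protein, was the 1 of 28 called for the difference (0.97), and lost that call without Kelly DMSO replicate 1 (0.94) or 3 (0.96) or treated replicate 1 (0.90). Of 20 potassium channel genes 5 rose and 2 fell in Kelly, and 0 of 18 were called in NGP by edgeR (10 at an unadjusted p under 0.05, 3 called by DESeq2, and up to 6 rises under the other settings). KCNH2 and KCNH6, voltage-gated channels, changed by 0.62 and -1.06 in Kelly, both called, and in NGP by 0.38 and 0.32, neither called. The difference for KCNH6, -1.39, was called by DESeq2 (-1.41) and without NGP DMSO replicate 3 (-1.72). Of 23 genes of cholesterol synthesis and uptake 5 fell in Kelly, where 14.7% of all genes fell. In NGP 0 of the 23 were called by edgeR or DESeq2, with 2 at an unadjusted p under 0.05 in edgeR. MVK, mevalonate kinase, and FDPS, farnesyl diphosphate synthase, changed by -0.61 and -0.40 in Kelly and -0.32 and -0.13 in NGP, and with 1 spread for both lines neither Kelly fall was called (MVK -0.60 in both such fits, FDPS -0.37 and -0.38). Of 14 interferon-induced genes STAT2 rose (0.47) and ISG20 fell (-1.50) in Kelly, and 0 of 14 were called in NGP by edgeR or DESeq2 (1 at an unadjusted p under 0.05 in edgeR), where these stood at log2 changes of 0.97 and -1.34. Neither Kelly call held with 1 spread for both lines (0.50 and 0.49 for STAT2, -1.49 for ISG20), and that of STAT2 was also lost without Kelly DMSO replicate 1 (0.38) or 2 (0.46) or treated replicate 2 (0.50).

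Axon guidance genes gave calls on both sides: 2 of 35 were higher in Kelly for the difference and 2 lower. NRP1, a co-receptor of class 3 semaphorins, rose in both lines, from 27.6, 27.7 and 25.3 to 43.2, 42.7 and 36.4 CPM in Kelly and from 8.65, 9.81 and 7.08 to 38.6, 43.7 and 39.7 in NGP. The rise was larger in NGP (0.60 against 2.27, difference -1.66, SE 0.22), and the treated libraries of the 2 lines ended in overlapping ranges. Its partner receptor PLXNA3 fell in NGP from 62.5, 51.4 and 56.1 to 25.7, 20.5 and 21.6 CPM and stayed between 51.1 and 61.6 in Kelly, a difference of 1.43 (SE 0.19). Both differences were called under each alternative that was run. EPHB2 and EPHB3, ephrin receptors, differed by 0.85 and -0.95, with calls that were lost with any 1 Kelly library left out (0.73 to 0.92 and -1.02 to -0.86). EPHB2 was also lost without NGP DMSO replicate 1 (0.83) or 3 (0.76) or treated replicate 1 (0.84), and EPHB3 without NGP DMSO replicate 2 (-0.89) or 3 (-0.91) or treated replicate 1 (-0.69).

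Of the 18 genes called in opposite directions, 6 rose in Kelly and 12 fell there. IGFBP5 (GRCh38 chr2:216672105-216695549), an insulin-like growth factor binding protein like IGFBP3, stood at 40.9, 39.3 and 43.1 CPM in Kelly with DMSO and 102, 103 and 112 with STM2457. In NGP it stood at 206, 237 and 221 with DMSO and 133, 144 and 105 CPM with STM2457. The lines thus moved towards each other, with log2 changes of 1.34 (SE 0.076) and -0.79 (SE 0.16) and a difference of 2.16 (SE 0.17, edgeR Benjamini-Hochberg adjusted p 1.06e-06). DLL3, an inhibitory Notch ligand, stood at 79.9, 80.4 and 81.2 with DMSO and 90.8, 109 and 101 CPM with STM2457 in Kelly and 133, 129.5 and 151 with DMSO and 99.3, 77.5 and 70.4 with STM2457 in NGP, a difference of 1.06 (SE 0.18). Its Kelly call was lost without treated replicate 2 (0.24) and its NGP call without DMSO replicate 3 (-0.67).

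ITGB5 (GRCh38 chr3:124761948-124901418), an integrin chain, stood at 131, 134 and 143 CPM in Kelly with DMSO and 57.03, 61.2 and 52.1 with STM2457, and at 18.1, 16.9 and 18.2 with DMSO and 33.4, 32.2 and 27.4 with STM2457 in NGP. The groups did not overlap in either line and the difference was -2.05 (SE 0.17, edgeR Benjamini-Hochberg adjusted p 2.81e-06). The NGP rise of 0.80 was not called with any 1 NGP library left out (0.74 to 0.89). CRH, the corticotropin-releasing hormone, stood at 15.3, 15.6 and 10.9 CPM with DMSO and 3.71, 4.31 and 4.397 with STM2457 in Kelly and at 0, 0.357 and 1.16 with DMSO and 9.405, 7.96 and 6.54 with STM2457 in NGP, a difference of -5.71 (SE 0.70). The NGP call of CRH was lost without treated replicate 1 (3.79). CHRM3, a muscarinic receptor like CHRM1, stood at 19.9, 14.6 and 16.3 with DMSO and 8.28, 7.02 and 9.14 CPM with STM2457 in Kelly and 6.53, 4.995 and 3.78 with DMSO and 10.5, 13.2 and 15.4 with STM2457 in NGP, a difference of -2.42 (SE 0.36). Its NGP rise was not called with any 1 NGP library other than DMSO replicate 2 left out (1.16 to 1.58).

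**Figure D3:**
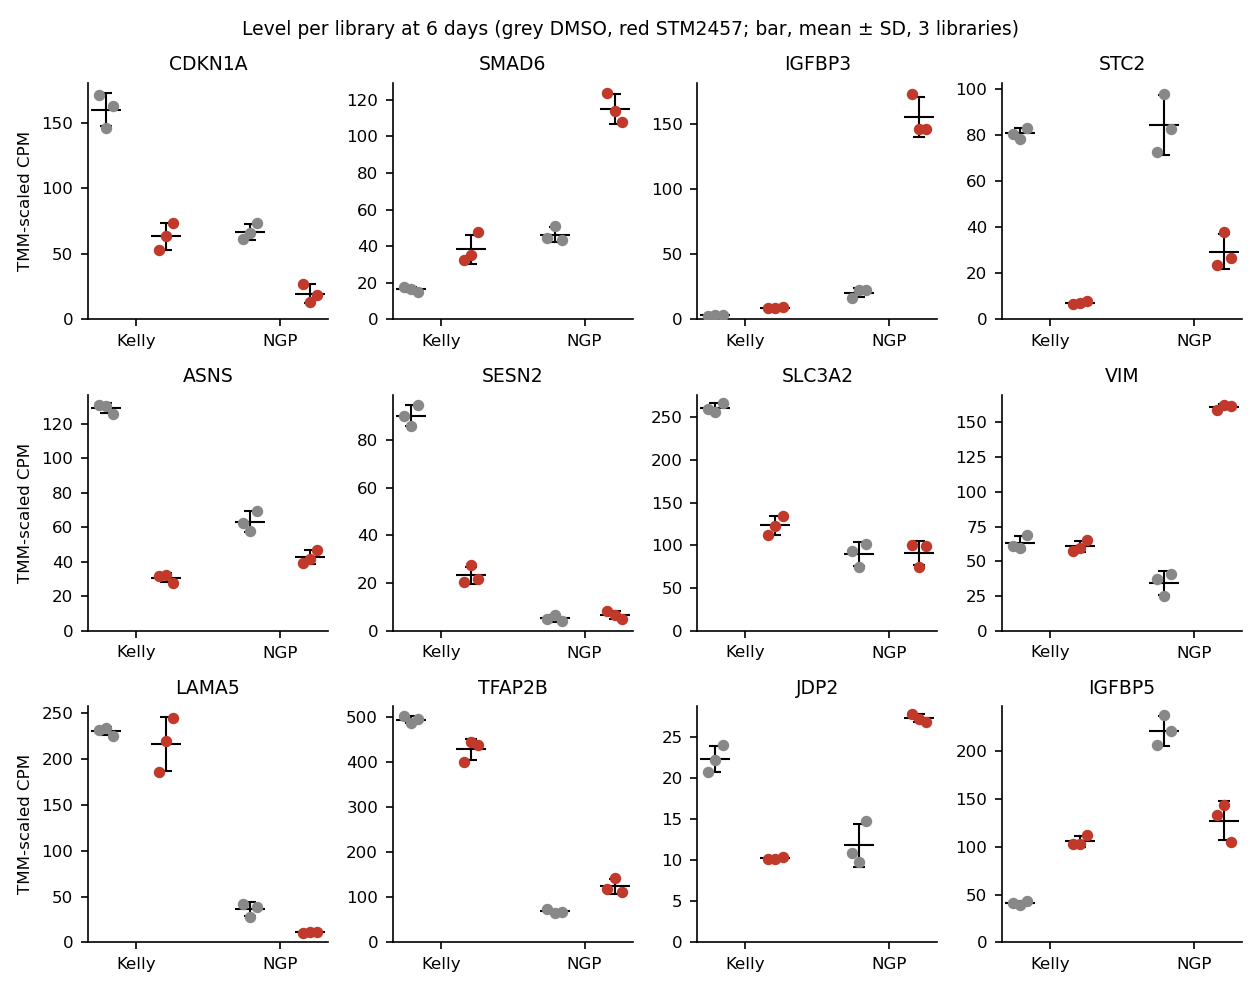
TMM-scaled CPM of 12 genes in each of the 12 libraries, grey for DMSO and red for STM2457, with the mean ± SD of 3 libraries as bars and the vertical axis from 0. CDKN1A and SMAD6 move alike in both lines, ASNS, SESN2 and SLC3A2 fall mainly in Kelly, VIM rises and LAMA5 falls in NGP, and TFAP2B, JDP2 and IGFBP5 move in opposite directions.

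For transcripts of the methylation machinery no difference between the lines was called. METTL3 itself stood at 106, 98.1 and 97.2 CPM in Kelly with DMSO and 97.4, 105 and 111 with STM2457, and at 92.9, 78.3 and 80.4 with DMSO and 89.5, 71.1 and 110.5 with STM2457 in NGP, with overlap in both. The inhibitor acts on the enzyme, so this level does not check the treatment. METTL3 shares 388 exon bases with TOX4. The difference for METTL3 was -0.057 (95% interval -0.45 to 0.34), and that for METTL14 0.23 (-0.57 to 1.03). Of 19 writers, erasers and readers 8 rose and 1 fell in Kelly, while edgeR called 0 in NGP and 0 for the difference. At an unadjusted p under 0.05 these were 4 and 1, and DESeq2 called 1 and 0. VIRMA, a scaffold of the writer complex, rose by 0.57 (SE 0.10) in Kelly and had a log2 change of 0.18 in NGP, and the Kelly call was lost in the fit of 22 inputs (0.58). WTAP, a regulatory subunit, changed by 0.24 and 0.10, neither called. RBM15B, a subunit that guides the writer complex, rose by 0.70 (SE 0.072) in Kelly and changed by 0.57 (SE 0.18, edgeR Benjamini-Hochberg adjusted p 0.0665) in NGP, and it shares 1325 exon bases with DCAF1. MYCN, the amplified oncogene of both lines, stood at 5763, 5668 and 5894 CPM in Kelly with DMSO and 6563, 6557 and 7557 with STM2457, and at 5082, 6340.4 and 6050.4 with DMSO and 4561, 5136 and 3840.2 with STM2457 in NGP. The Kelly libraries did not overlap and the NGP libraries did. The difference of 0.62 (SE 0.17) missed the threshold (edgeR Benjamini-Hochberg adjusted p 0.088). It was called by DESeq2 (0.60), limma voom (0.62), without the low-count filter (0.64), in the fit of all 22 inputs (0.63), without NGP DMSO replicate 1 (0.71) and without NGP treated replicate 2 (0.74). The Kelly rise of 0.24 was not called with any 1 DMSO replicate left out (0.22 to 0.25). Nor was it called with 1 spread for both lines (0.26 in both such fits).

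Libraries outside the comparison gave further readouts of the same genes. After 1 day of STM2457 in Kelly, 95 of the 161 genes that rose in both lines at 6 days had risen (59.0%) and 1 had fallen, against 9.72% up and 8.31% down among all genes tested for the difference (9.41% and 8.06% of all genes tested at 1 day). Of the shared falls 55 of 137 had fallen at 1 day (40.1%) and 2 had risen. Among genes called down in Kelly alone with a called difference, 25 of 54 were down at 1 day and 0 up, and of those called up in Kelly alone, 12 of 35 were up and 0 down. For the NGP falls 0 of 25 were called in Kelly at 1 day in either direction, and for the NGP rises 5 of 20 were up and 1 down. Shared genes were more abundant than the typical gene, with a median log2 CPM of 5.65 for rises and 6.25 for falls against 4.41, and the part of abundance in these shares was not tested. The 4 inputs of Kelly xenografts, treated for 14 days at 50 mg/kg, gave 0 calls among 11329 genes. Their common biological coefficient of variation was 0.448. The median log2 change there was 0.090 for the shared rises, with 81 of 149 above 0. For the shared falls it was 0.091, with 80 of 133 above 0, and for all genes -0.0076.

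In Kelly cells at 1 day without inhibitor, the enrichment of a transcript by the m6A antibody was measured as the log2 ratio of RIP over input. The ratio had a median of 1.22 for the shared rises, -2.04 for the shared falls and -0.077 for all genes. Of the shared rises 88 of 161 (54.7%) were enriched at least 2-fold and 14.3% depleted, against 30.5% and 33.1% of all genes. Of the shared falls 12 of 137 (8.76%) were enriched and 93 (67.9%) depleted. The line-specific kinds lay between: the median was 0.86 for Kelly rises, -0.57 for Kelly falls, 1.05 for NGP rises, -0.69 for NGP falls and 0.19 for opposed genes. The 6 opposed genes that rose in Kelly had a median of 1.34 and the 11 measured ones that fell there -0.90. Amino acid genes did not share 1 state, with log2 ratios of -2.37 for ASNS, -2.93 for PHGDH, 2.83 for CHAC1 and 3.07 for STC2. The shared falls were also shorter, with a median exon length of 3603.5 bases and 6 exons after merging, against 5208.5 bases and 11 exons for all genes and 5634 bases and 10 exons for the shared rises. The RIP libraries are from Kelly, so enrichment in NGP is not covered here, and the part of transcript length in these ratios was not tested.

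**Figure D4:**
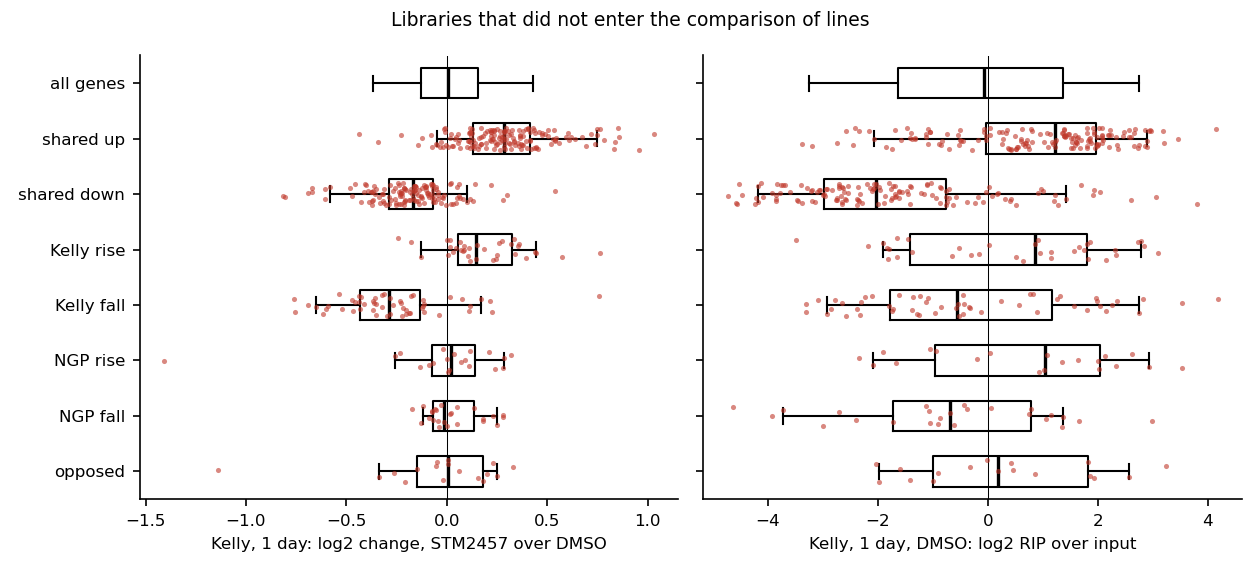
Left, log2 change with STM2457 at 1 day in Kelly; right, log2 ratio of RIP over input in Kelly DMSO cells at 1 day, for all genes and for the kinds of genes defined at 6 days. Red points are genes, boxes span the quartiles with the median as a bar, and whiskers reach the 5th and 95th percentiles; the shared rises have medians of 0.28 and 1.22 and the shared falls -0.17 and -2.04.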

How the data were processed

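The deposited files hold raw fragment counts per gene, made by the authors with featureCounts 1.5.3 on the GENCODE 33 annotation, per the file headers. Reads were trimmed with Trimmomatic 0.36 and aligned with HISAT2 2.1.0 to GRCh38, per the submitters' processing notes. The 12 input libraries were fitted with edgeR 4.0.16 (R 4.3.3): TMM factors, filterByExpr (minimum count 10, minimum total 15), a quasi-likelihood test per line on its 6 libraries and, for the difference, on all 12, with Benjamini-Hochberg adjustment over all genes tested. SE is the log2 change divided by the square root of F. Kelly inputs at 1 day, RIP against input there, and the xenograft inputs were fitted alike. DESeq2 1.42.0 and limma 3.58.1 were alternatives. The code was tested on simulated data. Named genes were METTL3, METTL14, WTAP and MYCN, the 6 shared rises and 6 shared falls with the largest smaller change, the 5 largest differences of each kind, and list members called for the difference or, failing those, the 2 with the smallest p, from a mean of 2 log2 CPM and without overlap where called. One result the rule names is not reported here. Members and lists were chosen with earlier results of these data known. Spike-in RNA was not used here. The main tests did not pair samples by replicate number.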

Additional observations from a re-analysis of the deposited data

Results flagged for a closer look

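The change in Kelly differed from that in NGP by edgeR's test of the difference itself (Benjamini-Hochberg adjusted p under 0.05) for 63 of the named genes. Values in parentheses are the log2 change in Kelly minus the log2 change in NGP. In 30 the call was kept under every alternative that tested the gene. Of these, the Kelly change was lower for ADM (-6.48), CRH (-5.71), SLC7A11 (-4.58), INHBE (-3.59), MSX2 (-3.32), KRT17 (-3.17), CHRM3 (-2.42), JDP2 (-2.32), SESN2 (-2.31), VIM (-2.28), EGLN3 (-2.13), ITGB5 (-2.05), STC2 (-1.98), NRP1 (-1.66), PPP1R16B (-1.54), ASNS (-1.48), GPT2 (-1.41), SLC3A2 (-1.11), TFAP2B (-1.06), SLC7A5 (-1.03), DDIT4 (-0.997), FOSL2 (-0.98), DDC (-0.98), GARS1 (-0.96) and PHGDH (-0.83). It was higher for DLL3 (1.06), PLXNA3 (1.43), LAMA5 (1.64), IGFBP5 (2.16) and RAB26 (2.55). The alternative with at least 10 CPM in both lines did not cover ADM, CRH, SLC7A11, INHBE, MSX2, KRT17, CHRM3, SESN2, EGLN3 and RAB26. NGP controls held few counts for ADM (6, 9 and 11), CRH (0, 2 and 12) and SLC7A11 (12, 2 and 5), so these sizes are uncertain.

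In the other 33 the call was lost under at least 1 alternative, and the sign turned in 0. Here the Kelly change was lower for ANXA4 (-4.51), SEMA5B (-3.21), TH (-2.77), CHRM2 (-2.59), CHAC1 (-2.12), FOXC1 (-2.09), SPRY4 (-2.02), COL11A1 (-1.97), ADM2 (-1.96), CYB561 (-1.90), ALDH1L2 (-1.82), PLK2 (-1.62), IGFBP3 (-1.49), VLDLR (-1.41), CARS1 (-1.01), EPHB3 (-0.95), PSPH (-0.92), WARS1 (-0.84), MARS1 (-0.82), TP53I3 (-0.79) and DBH (-0.79). It was higher for EPHB2 (0.85), CNTN1 (0.97), GFRA1 (1.05), ZNF469 (1.32), ASIC4 (1.36), NELL1 (1.48), ABAT (1.58), PHYHIP (1.69), AMOTL2 (1.84), TMEM130 (1.99), BBC3 (2.33) and UNC93B1 (6.48). The values for ANXA4, with 1, 0 and 0 counts in the NGP controls, and UNC93B1, with 0 counts in each treated NGP library, depend on the prior count and are not read as sizes. The fit of 22 inputs lost the difference call for ADM2, AMOTL2, ASIC4, CHRM2, COL11A1, GFRA1, IGFBP3, NELL1, PSPH, SEMA5B, SPRY4, VLDLR, WARS1 and ZNF469. The replicate block lost it for ABAT, ALDH1L2, AMOTL2, ANXA4, CHRM2, EPHB2, GFRA1, PLK2, PSPH, SEMA5B, SPRY4, TP53I3 and VLDLR. Limma voom lost it for ABAT, AMOTL2, ANXA4, BBC3, CHAC1, CHRM2, CYB561, EPHB2, EPHB3, FOXC1, PHYHIP, PSPH, TH, TMEM130 and UNC93B1. RLE size factors lost it for GFRA1.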

How the results depend on the processing

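Each count of calls moved by under 1.5 times with RLE size factors, without the low-count filter and with a minimum of 10 CPM. The difference was called for 430 genes by DESeq2, of which 180 were among the 183. One fit of all 22 inputs gave 791 calls in Kelly and 1266 in NGP, and line effects from the fit of 12 libraries gave 852 and 1586. With the replicate number as a block, the difference gave 132 calls, NGP 870 and the shared set 467. Same-numbered libraries correlated at -0.209 to 0.207 in their deviations, so the numbers do not pair them. With 1 library left out, the counts ran from 94 to 276 for the difference, 2499 to 3585 for Kelly, 128 to 459 for NGP and 74 to 340 for the shared set. Of 209 values for single genes, 122 kept direction and side of the threshold under all alternatives that tested the gene. Signs turned in 11, none of them a called value, and the cause was not tested. The difference for FEN1 was 0.011 without the filter and 0.0013 with all 22 inputs, and that for PTTG1 was -0.0039 with RLE factors and -0.0028 with DESeq2. With 1 library left out, the NGP change ran from -0.056 to 0.26 for METTL3 and from -0.16 to 0.46 for METTL14. The difference ran from -0.19 to 0.13 for METTL3, -0.11 to 0.55 for METTL14, -0.73 to 0.11 for CABP7, -0.064 to 0.34 for SHOX2 and -0.10 to 0.014 for ID2. It ran from -0.046 to 0.053 for FEN1, -0.061 to 0.17 for PTTG1, -0.0077 to 0.25 for RBM15B and -0.62 to 0.40 for ISG20. The median SE was 0.20 in NGP and 0.094 in Kelly over genes of at least 10 CPM, and NGP libraries held 5488974 to 11604403 fragments. Whether depth limits the calls in NGP was not tested.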
